A study of Mus musculus with 45 samples.

Results

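Oxidative phosphorylation was followed at the level of messenger RNA through the genes for the subunits of respiratory chain complexes I to V, from both the nuclear and the mitochondrial genome. Nuclear members are the genes whose symbols start with Nduf (a, b, c, s or v plus a number), Uqcr, Cox followed by a number from 4 to 8, or Atp5, and the genes Sdha to Sdhd. Mitochondrial members, found by gene identifier, are the genes for ND, cytochrome b, CO and ATP subunits. Of 28454 listed genes, 89 nuclear symbols matched, 2 pseudogenes were removed, and 87 nuclear and 13 mitochondrial genes made up the 100 members. A minimum of 10 counts in at least 3 of the 45 libraries kept 93 of them, compared with 14232 of all listed genes. The 7 members below this minimum were Cox4i2, Cox6b2, Cox7b2, Cox8b, Ndufa4l2, Ndufb11b and Ndufs6b. The 80 kept nuclear members comprised 37 genes of complex I, 4 of complex II, 8 of complex III, 14 of complex IV and 17 of complex V. Ndufa4 was counted with complex IV, where its protein resides, and the name rule does not reach Ndufab1, Cyc1 and Cycs.

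The respiratory chain sits in the inner mitochondrial membrane. Complex I (NADH dehydrogenase) and complex II (succinate dehydrogenase) pass electrons to ubiquinone, complex III passes them to cytochrome c, complex IV reduces oxygen, and complex V (ATP synthase) uses the proton gradient built by complexes I, III and IV. Mitochondrial DNA encodes the hydrophobic core of every complex except complex II, and the remaining subunits are nuclear gene products that are imported, so each complex other than complex II needs the output of both genomes. Iron-sulfur clusters, whose sulfur comes from cysteine, are cofactors of complexes I, II and III.

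Messenger RNA was sequenced from mouse mammary tumour cell lines driven by cMYC, with 3 cultures per line and medium. The lines MYAZ16.1e, MYAZ12.3i and MYAZ6.6g came from mammary tumours of MMTV-cMYC mice, in which the MMTV promoter drives the transgene in mammary epithelium, and Myc310 is 1 line from such a mouse with several tumours. LM1, LM2 and LM3 were taken from lungs after Myc310 cells had been injected into the mammary fat pad, and LM1-LM, LM2-LM and LM3-LM from lungs after injection of LM1 cells. These 10 lines were grown in DMEM:F12 with 10% serum, MYAZ16.1e, Myc310, LM1 and LM1-LM were also kept for 6 h in medium without cysteine and cystine, and a MYAZ12.3i line labelled NDI1 was grown in control medium. NDI1 is the name of the yeast single-subunit NADH dehydrogenase, and the labels do not say how the line was made. The cultures of a line are described as technical replicates, so p-values measure the spread between cultures.

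Counts on genes ranged from 19517859 to 29019988 per library, with a median of 22899900. The summed level of 10 mammary epithelium markers was 335 to 2400 CPM (counts scaled to library size, after TMM) in control libraries, that of 10 fibroblast markers 24.7 to 333 CPM, and that of the 6 listed leukocyte markers 2.77 to 19.3 CPM. The part of these differences in the results was not tested. Nuclear copies of mitochondrial DNA on chromosome 1 share most of the sequence of several mitochondrial genes, and the counting had split reads between the pair. The copy held 71.4% of the pair's counts for mt-Nd3, 68.1% for mt-Co3, 59.3% for mt-Atp6, 46.3% for mt-Nd4l, 23.1% for mt-Co2, 4.21% for mt-Co1 and 1.27% for mt-Nd4. Values of these genes are therefore uncertain, and results are also given with gene and copy summed where this changes a call. Among nuclear members, all 75-base stretches of Ndufb4c are also in Ndufb4, and 35.8% of those of Atp5g2 are in Gm10175.

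Promoters of nuclear subunit genes are known to carry sites for NRF1, for ETS factors such as GABP, and for YY1. RefSeq promoter windows (mouse build GRCm38.p6, 250 bases before to 50 after the start) were matched for 66 of the 80 kept nuclear members. The parts printed here belong to 4 genes with large falls under cysteine and cystine deprivation (Atp5k, Sdhd, Uqcrh and Ndufb3) and to Atp5e, which was lower in Myc310 and the lung-derived lines than in the MYAZ lines. Up to 150 bases before the start are shown, on the strand of the gene. Capitals mark matches on either strand to the NRF1 motif GCGCATGCG, a separate short NRF1 motif TGCGCA, the ETS motif CCGGAAG, the YY1 motif AAGATGGC or the CCAAT box. Stretches without any of these motifs, not printed, were those of Cox7a2, which also fell, and Uqcrfs1, which was higher in Myc310 and the lung-derived lines. That of Uqcr11, which also fell and is not printed, held an ETS match. The Atp5k stretch lies at chr5:108434439-108434549 (minus strand), that of Sdhd at chr9:50603850-50603999 (minus), Uqcrh at chr4:116075071-116075220 (minus), Ndufb3 at chr1:58586247-58586393 (plus) and Atp5e at chr2:174464102-174464251 (minus).
Atp5k: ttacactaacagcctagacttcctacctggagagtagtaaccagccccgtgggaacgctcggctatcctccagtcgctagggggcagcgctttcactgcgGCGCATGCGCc
Sdhd: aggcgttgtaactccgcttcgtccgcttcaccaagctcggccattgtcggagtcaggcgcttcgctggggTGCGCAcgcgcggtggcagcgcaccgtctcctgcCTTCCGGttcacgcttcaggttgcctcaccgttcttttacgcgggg
Uqcrh: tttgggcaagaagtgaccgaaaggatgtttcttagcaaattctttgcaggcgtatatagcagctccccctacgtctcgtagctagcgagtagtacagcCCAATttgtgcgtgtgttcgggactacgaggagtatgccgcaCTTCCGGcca
Ndufb3: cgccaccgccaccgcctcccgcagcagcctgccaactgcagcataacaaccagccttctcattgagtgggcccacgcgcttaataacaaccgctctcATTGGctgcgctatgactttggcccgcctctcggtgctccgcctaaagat
Atp5e: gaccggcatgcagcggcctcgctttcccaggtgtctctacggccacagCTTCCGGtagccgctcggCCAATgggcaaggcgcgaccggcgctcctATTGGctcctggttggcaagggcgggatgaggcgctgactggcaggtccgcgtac

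The NRF1 motif, which in the Atp5k promoter is an overlapping match on both strands, was present in the windows of 8 of 66 members (12.1%), compared with 3.80% of 10061 tested genes and 1.81% of all 27025 windows. These members were Atp5g2, Atp5k, Atp5l, Cox6a1, Ndufa11, Ndufa8, Uqcr11 and Uqcrc1. The YY1 motif was present in 13.6% of members and 4.81% of tested genes, the short NRF1 motif in 27.3% and 14.6%, the ETS motif in 24.2% and 18.7%, and the CCAAT box in 42.4% and 39.5%. The short motif is not contained in the full NRF1 motif, although matches to both can overlap, and a match is a description of the sequence and not a measured site.

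Steady-state levels were compared between genes as CPM per kilobase of merged exons. In control medium the median over members was 509.7 for the 7 mitochondrial genes of complex I, 2489 for the 3 of complex IV and 1392 for the 2 of complex V, and mt-Cytb, the sole mitochondrial gene of complex III, stood at 1507. The corresponding medians of nuclear members were 32.4 for complex I, 60.9 for complex II, 82.6 for complex III, 97.4 for complex IV and 76.3 for complex V. The nuclear transcripts at the top were Atp5b and Atp5a1, the catalytic beta and alpha subunits of the ATP synthase head, at 427.9 and 403.2, followed by Cox8a (226.2), Cox6b1 (198.6), Cox4i1 (185.7) and Sdhd (178.8). With the counts of the nuclear copies added, the mitochondrial medians became 781 for complex I, 3171 for complex IV and 2301 for complex V. Among mitochondrial genes mt-Co1 stood at 2743 and mt-Co2 at 2489, an order that turned with the copies added (2866 and 3242), when mt-Co3 (3171) and mt-Atp6 (3132) also passed mt-Co1. In both settings mt-Nd6, which lies on the other strand and lacks a stable poly(A) tail, was lowest at 50.3. Poly(A) selection bears on all of these values.

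Isoforms of complex IV known from heart, skeletal muscle, lung or testis were close to silent in control medium. Cox7a1, the muscle form, had line means of 0.0967 to 0.466 CPM, whereas its ubiquitous partner Cox7a2 had 73.5 to 110.0 CPM. Cox6a2, also a muscle form, stood at 0 to 0.0956 CPM and its partner Cox6a1 at 113.5 to 130.3 CPM. Cox4i2, Cox6b2, Cox7b2, Cox8b and Ndufa4l2 did not reach the minimum count, so complex IV was represented by one isoform set in each line.

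The 13 mitochondrial mRNAs took 0.773% to 2.12% of gene counts per library. The 3 MYAZ16.1e control cultures stood at 1.35%, 2.05% and 2.04%, and culture 1 was the lowest of the 3 for 11 of the 13 genes. The nuclear subunit mRNAs varied less, with group means in control medium of 1.01% for MYAZ16.1e, 1.10% for Myc310, 1.07% for LM1 and 1.08% for LM1-LM. After deprivation these were 0.952%, 0.976%, 0.943% and 0.950%, respectively.

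**Figure D1:**
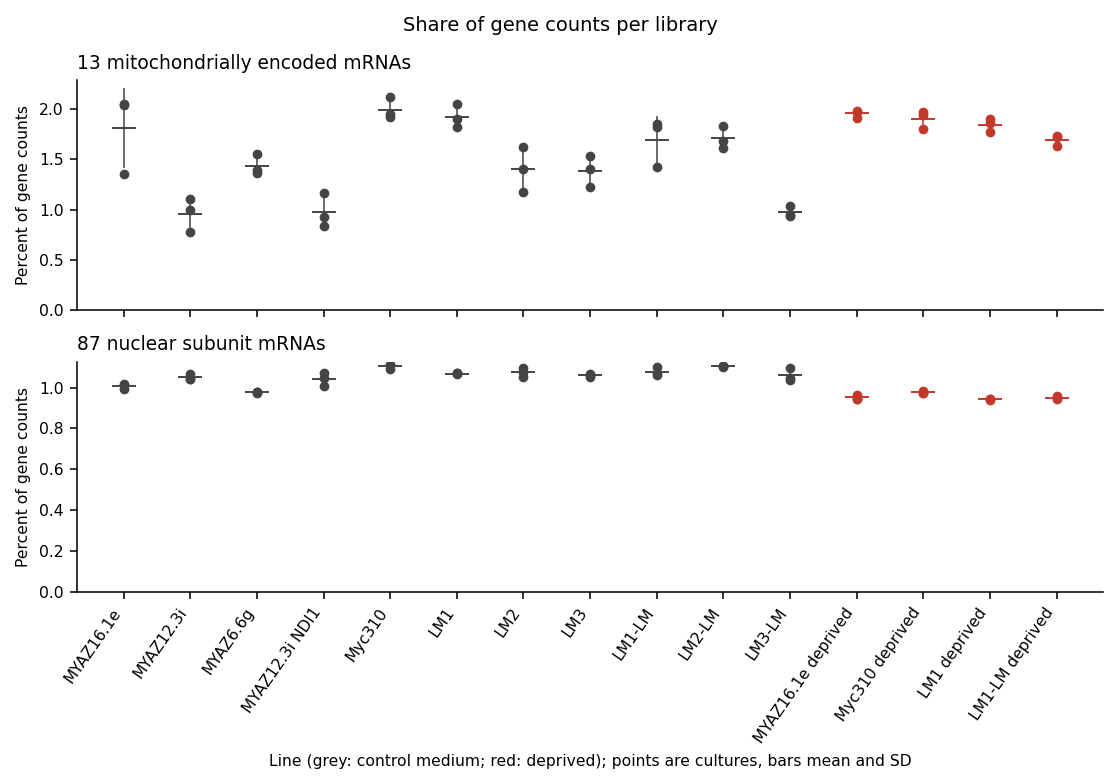
Share of gene counts per library on the 13 mitochondrially encoded mRNAs (top) and the 87 nuclear subunit mRNAs (bottom), in percent, for the 15 groups of 3 cultures. Points are cultures and bars the mean and SD. The mitochondrial share spans 0.773% to 2.12% and the deprived groups (red) lie within the range of the control groups, while the nuclear share lies lower in deprived than in control cultures of the same line.

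The first comparison asked how the subunit genes responded to 6 h without cysteine and cystine. Nuclear subunit mRNAs fell on balance in each of the 4 lines, with Atp5k, Sdhd, Uqcrh and Ndufb3 among the 7 lowest fold changes in each, while Uqcrq, Ndufb9 and Uqcrc2 rose in all 4 and 0 to 3 of 13 mitochondrial mRNAs were called. Of 79 nuclear members tested, 40 were lower and 3 higher in MYAZ16.1e at an adjusted p under 0.05, against a background of 27.1% of all tested genes lower and 26.6% higher (53.7% in either direction). In Myc310 52 were lower and 10 higher (background 33.9% and 32.8%, together 66.8%). LM1 had 38 lower and 18 higher (35.3% and 35.8%, together 71.1%), and LM1-LM 35 lower and 18 higher (35.9% and 36.5%, together 72.4%). The median log2 fold change of nuclear members was -0.09, -0.18, -0.07 and -0.06 in the same order, beside medians between -0.01 and 0 over all tested genes. Scaling by library size alone, which moves the median of all genes to -0.12 in LM1 and -0.13 in LM1-LM, gave 57 lower in both, with 6 higher in LM1 and 9 in LM1-LM, beside 42.0% and 43.0% of all genes lower and 29.4% and 29.6% higher. With upper-quartile scaling there were 50 lower and 13 higher in LM1, and 49 lower and 12 higher in LM1-LM. Of all genes 39.6% and 40.3% were then lower and 31.6% and 32.0% higher. Each count of rises outside MYAZ16.1e includes Cox6a2, which passed the minimum count through the deprived cultures. Of 5 mammary epithelium markers tested, 4, 3, 3 and 3 were higher after deprivation and none lower, at median log2 fold changes of 0.29, 0.74, 0.39 and 0.39. Of 5 fibroblast markers, 1 was higher in each line and 1, 1, 2 and 2 lower, at medians of -0.01, -0.52, -0.87 and -0.60. In deprived libraries the summed levels were 1326 to 1610 CPM for the mammary and 24.3 to 79.9 CPM for the fibroblast list. Their part in the result was not tested, and fewer cells of a kind and less RNA per cell cannot be told apart in bulk samples.

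The falls recurred between lines. Of 92 members tested, 27 (29.3%) were lower in all 4 lines, compared with 19.0% of all tested genes, and 3 (3.26%) were higher in all 4, compared with 19.3%. No member was called in opposite directions in different lines, which happened for 824 of 13400 genes. The 27 were Ndufa5, Ndufa8, Ndufb3, Ndufb4c, Ndufb10, Ndufc1 and Ndufs7 of complex I, Sdhd of complex II, Uqcr10, Uqcr11, Uqcrb and Uqcrh of complex III, Cox5b, Cox6c, Cox7a2, Cox7b, Cox7c and Ndufa4 of complex IV, and Atp5c1, Atp5d, Atp5g3, Atp5j, Atp5j2, Atp5k, Atp5l, Atp5md and Atp5mpl of complex V. No call was made in any line for 15 members, 10 of them mitochondrial.

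**Figure D2:**
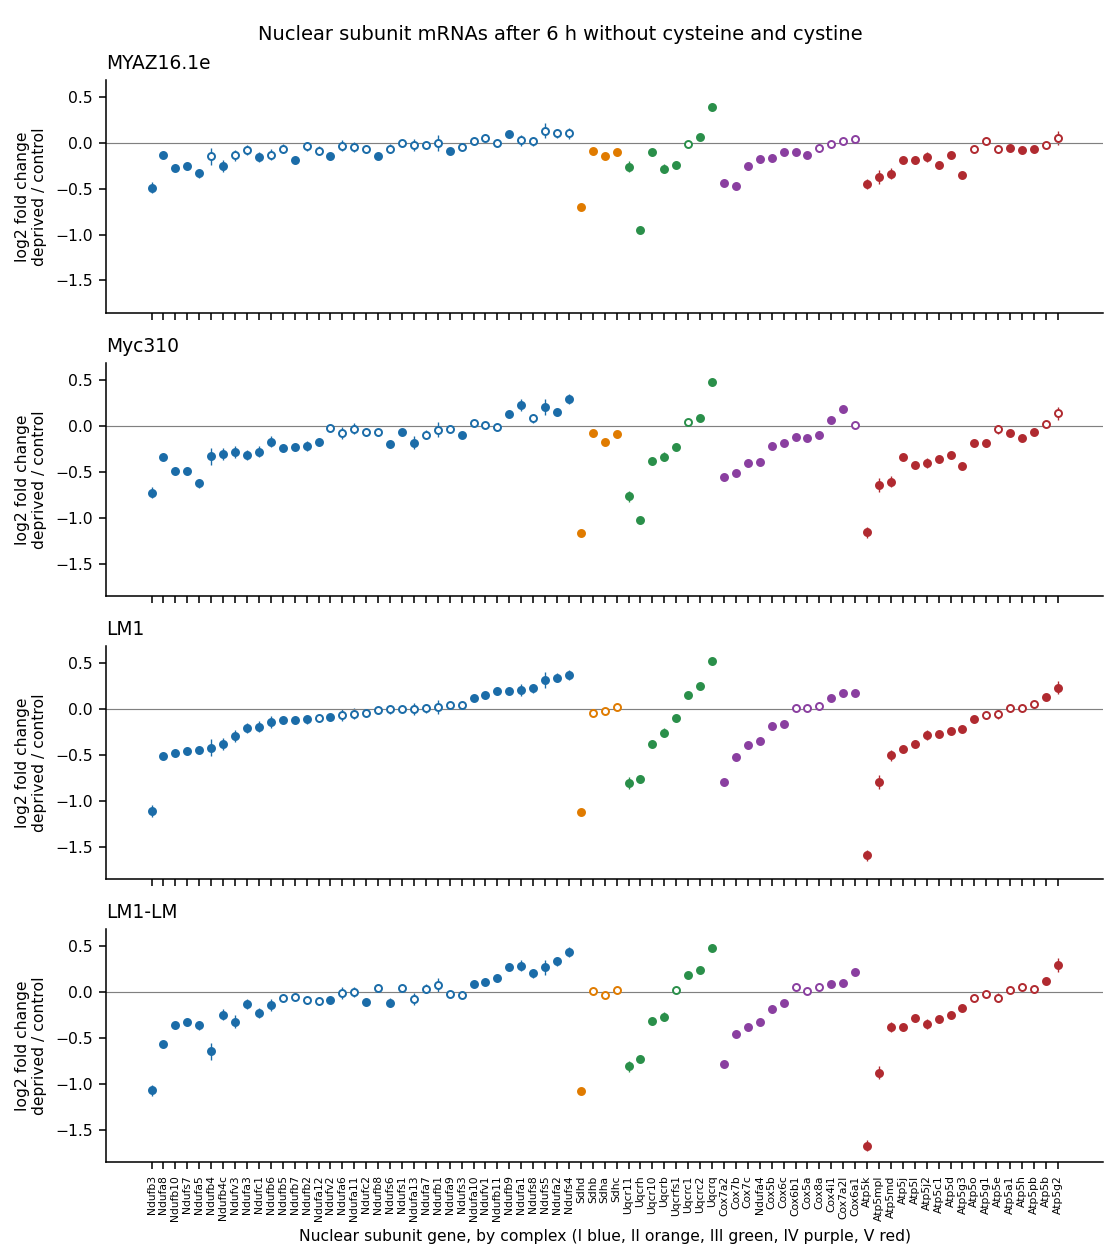
Log2 fold change (deprived over control) of nuclear subunit mRNAs in the 4 deprived lines, ordered within each complex by the value in LM1. Bars are the SE, filled points passed an adjusted p of 0.05 and Cox6a2 is left out for its scale. Atp5k, Sdhd, Ndufb3 and Uqcrh are among the lowest points, with Atp5k at -0.45 in MYAZ16.1e and -1.67 in LM1-LM, and Uqcrq lies above 0 in each line.

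In complex V the small subunits of the membrane part were lower throughout. Atp5k (subunit e), Atp5l (subunit g), Atp5j2 (subunit f), Atp5md and Atp5mpl were lower in each line, 5 of 5 (beside 27.1%, 33.9%, 35.3% and 35.9% of all tested genes), with median log2 fold changes of -0.34, -0.61, -0.51 and -0.38 in the order given above. Subunits e and g join ATP synthase dimers and shape the cristae. Of the 5 subunits of the catalytic head, 3 were lower in MYAZ16.1e and in Myc310, and 2 were lower and 1 higher in LM1 and in LM1-LM, against the same shares. This division into parts of the enzyme was made after the values were seen and is a description.

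Atp5k is a gene of 616 exonic bases on chromosome 5 (108433244 to 108434448, GRCm38). Its level in the MYAZ16.1e cultures was 60.0, 67.7 and 68.0 CPM in control medium and 49.2, 49.2 and 45.3 CPM after deprivation. In Myc310 it was 57.8, 59.1 and 52.7 CPM, and then 26.2, 24.9 and 24.9 CPM. The deprived cultures were below the control cultures in both lines without overlap. In LM1 the values were 53.9, 53.4 and 50.7 CPM in control and 17.6, 18.3 and 16.3 CPM in deprived cultures. LM1-LM had 55.1, 55.5 and 55.2 CPM, and then 18.1, 15.5 and 18.2 CPM. The lines thus started from similar levels and ended at different ones. The log2 fold change was -0.45 ± 0.05 (SE) in MYAZ16.1e (adjusted p = 1.97e-08), -1.16 ± 0.06 for Myc310 (3.71e-17), -1.60 ± 0.06 for LM1 (5.13e-20) and -1.67 ± 0.06 for LM1-LM (9.4e-21) by edgeR's quasi-likelihood test. Among 13400 tested genes 4.32% had a lower fold change in LM1 and 4.62% in LM1-LM.

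The catalytic beta subunit Atp5b, by contrast, had log2 fold changes of -0.03 in MYAZ16.1e and 0.02 in Myc310, neither called, and rose by 0.12 in LM1 and in LM1-LM. Its control cultures in LM1 stood at 1771, 1779 and 1766 CPM and its deprived cultures at 1922, 1922 and 1953 CPM. Atp5c1, the gamma subunit of the rotor stalk, fell in each line, by 0.25, 0.37, 0.27 and 0.30 on the log2 scale. The c-ring is encoded by 3 genes with the same mature protein, and these diverged: Atp5g3 was lower in all 4 lines (-0.36, -0.43, -0.22 and -0.18), Atp5g1 was lower in Myc310 (-0.19) and not called elsewhere, and Atp5g2 was higher in LM1 (0.23) and LM1-LM (0.29), where 21.5% of the counts it shares with its copy lie on the copy.

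**Figure D3:**
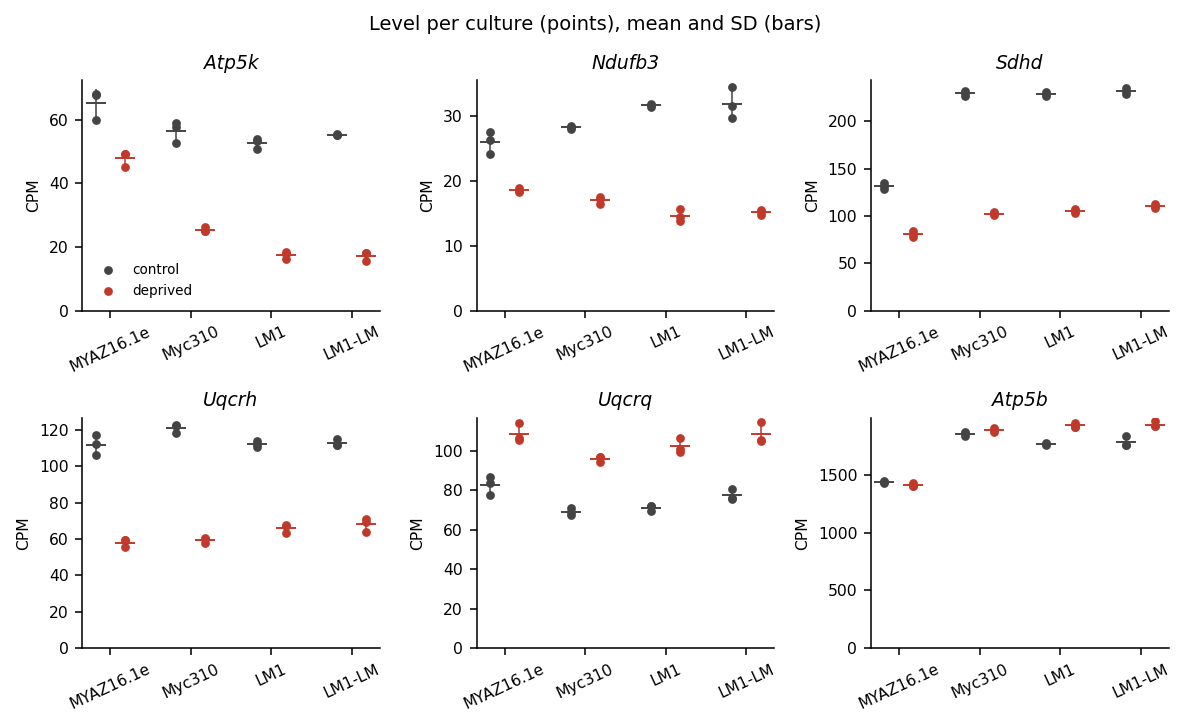
Level in CPM of 6 nuclear subunit mRNAs in control (grey) and deprived (red) cultures of the 4 lines. Points are cultures and bars the mean and SD, and each axis starts at 0. Atp5k, Ndufb3, Sdhd and Uqcrh are lower in every deprived culture, Uqcrq is higher, and Atp5b differs by little beside its level.

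Complex II, encoded wholly in the nucleus, lost more of its summed mRNA than the other complexes, and Sdhd carried most of the loss. The summed CPM of the 4 genes changed by -15.7%, -24.2%, -17.9% and -17.0% over the 4 lines, beside changes of -3.23% to -7.57% for the nuclear genes of complex I, -0.27% to -10.1% in complex III, -5.95% to -10.8% in complex IV and -1.17% to -8.02% in complex V. Sdhd, one of the pair of membrane anchors (chromosome 9, 50596357 to 50603812), stood at 131.8, 134.5 and 128.7 CPM in MYAZ16.1e control cultures and 84.2, 80.5 and 77.7 CPM in deprived ones. Control cultures of Myc310 had 231.8, 227.0 and 230.0 CPM and deprived ones 100.6, 103.8 and 103.2 CPM. In LM1 these were 229.2, 227.3 and 231.6 CPM and 103.0, 107.4 and 105.7 CPM. The drop was 1.63-fold in MYAZ16.1e and 2.24-fold, 2.18-fold and 2.11-fold in Myc310, LM1 and LM1-LM, with log2 fold changes of -0.70, -1.16, -1.12 and -1.08 (SE 0.03 each).

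The other subunits of complex II moved by much less. Sdha, the flavoprotein, had log2 fold changes of -0.15 in MYAZ16.1e and -0.18 in Myc310, both called, and -0.02 and -0.03 in LM1 and LM1-LM, which were not. Sdhb, the iron-sulfur subunit, had -0.09, -0.08, -0.04 and 0.01, and Sdhc, the partner anchor of Sdhd, -0.10, -0.09, 0.02 and 0.02, with calls in MYAZ16.1e and Myc310 for both genes, which leaving out some replicate numbers ended. Under scaling by library size alone Sdhc turned to -0.10 in LM1 and -0.11 in LM1-LM, and Sdhb stood at -0.16 and -0.12, all 4 called. With upper-quartile scaling Sdhb was called at -0.12 in LM1 and at -0.075 in LM1-LM (adjusted p = 0.0494).

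Complex III held members that moved far in both directions. Uqcrh, the acidic hinge protein, stood at 112.1, 106.0 and 117.2 CPM in MYAZ16.1e control cultures and at 55.5, 59.4 and 59.2 CPM after deprivation. The same gene went from 110.4, 112.0 and 113.7 CPM to 63.5, 67.3 and 67.5 CPM in LM1. Its log2 fold changes were -0.95, -1.03, -0.76 and -0.73 (SE 0.04) over the 4 lines. Uqcrq, a small subunit next to cytochrome b, moved the other way. Its control cultures in LM1 stood at 72.3, 72.0 and 69.3 CPM and its deprived cultures at 106.5, 100.9 and 99.7 CPM, and its log2 fold change was 0.39, 0.47, 0.52 and 0.48 (SE 0.04) over the 4 lines. Uqcr11 fell by 0.26, 0.77, 0.81 and 0.81 on the log2 scale, and Uqcr10 and Uqcrb by 0.11 to 0.39. The core protein gene Uqcrc2 rose by 0.07 to 0.25, Uqcrc1 rose in LM1 and LM1-LM alone among the 4 lines (0.15 and 0.18), and the Rieske iron-sulfur protein Uqcrfs1 fell in the first 3 lines (-0.24, -0.23 and -0.11) and stood at 0.02 in LM1-LM.

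Complex I divided between its members. The numbers lower and higher among 37 tested nuclear genes were 11 and 1, 20 and 5, 16 and 9, and 15 and 9 over the 4 lines. The shares lower were 29.7%, 54.1%, 43.2% and 40.5%, beside 27.1%, 33.9%, 35.3% and 35.9% of all tested genes. Ndufb3, an accessory subunit of the membrane arm, was at 26.4, 24.1 and 27.5 CPM in MYAZ16.1e control cultures and at 18.3, 18.5 and 18.9 CPM after deprivation. LM1 had 31.9, 31.4 and 31.8 CPM, and then 13.8, 14.5 and 15.6 CPM. Its log2 fold changes were -0.49, -0.73, -1.11 and -1.07 (SE 0.06). Ndufa8, Ndufb10, Ndufa5 and Ndufs7 followed with values between -0.13 and -0.63.

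Ndufs7, which binds the last iron-sulfur cluster before ubiquinone, was the sole one of the 7 nuclear catalytic core genes lower in each line (-0.25, -0.49, -0.46 and -0.33). Among the others, Ndufs1 moved by -0.07 to 0.04, and Ndufs8 was higher in LM1 (0.22) and LM1-LM (0.20). Ndufs4, an accessory subunit of the NADH-binding module, rose from 43.7, 42.6 and 40.6 CPM to 56.5, 51.2 and 56.6 CPM in LM1, with log2 fold changes of 0.29, 0.37 and 0.43 in Myc310, LM1 and LM1-LM and an uncalled 0.10 in MYAZ16.1e. Ndufa2 and Ndufb9 rose beside it, by 0.33 and 0.27 in LM1-LM.

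In complex IV the small subunits Cox7a2, Cox7b and Cox7c fell in each line and the large subunit isoforms moved little. Cox7a2 went from 99.2, 97.1 and 98.9 CPM to 56.1, 58.5 and 55.2 CPM in LM1, and its log2 fold changes were -0.44, -0.56, -0.80 and -0.79. Those of Cox7b were -0.47, -0.51, -0.53 and -0.45, and those of Cox7c -0.26, -0.40, -0.40 and -0.39. Cox4i1, the largest nuclear subunit, had -0.02 in MYAZ16.1e and rose by 0.07 to 0.11 in the other lines, which turned to -0.003 in LM1 and -0.04 in LM1-LM under scaling by library size alone. Cox6a1 had 0.17 in LM1 and 0.21 in LM1-LM.

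Cox6a2, the muscle isoform next to Cox6a1, appeared in deprived cultures at low counts (chromosome 7, 128205435 to 128206387). Its counts were 2, 3 and 0 in MYAZ16.1e control and 2, 4 and 9 in deprived cultures. In Myc310 they were 0, 1 and 0, and then 26, 12 and 21, in LM1 0, 1 and 0, and then 36, 27 and 33, and in LM1-LM 0, 1 and 0, and then 48, 36 and 39. The gene passed the filters on low counts only through the deprived cultures, where it is high, so these counts are a description and no test of it is used. At its deprived level Cox6a2 remained a small part of the Cox6a mRNA, and the gene overlaps Itgad on the opposite strand.

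The mitochondrial genes were measured with more spread. The percent of gene counts on the 13 mRNAs was 1.82 ± 0.40 (SD, n = 3) in control and 1.957 ± 0.035 in deprived MYAZ16.1e cultures, 2.00 ± 0.11 and 1.90 ± 0.09 in Myc310, 1.92 ± 0.12 and 1.85 ± 0.07 in LM1, and 1.70 ± 0.24 and 1.70 ± 0.05 in LM1-LM. Exact two-sided permutation tests gave p = 1, 0.5, 0.5 and 1, where 3 against 3 cultures cannot go below 0.1, and every value was 1 after adjustment over 7 tests of this share. Per gene, no mitochondrial member was called in MYAZ16.1e, and mt-Nd1 alone was lower in Myc310 (-0.35 ± 0.09), LM1 (-0.27 ± 0.09) and LM1-LM (-0.23 ± 0.09). In Myc310 mt-Nd1, which encodes a subunit of the ubiquinone pocket of complex I, went from 2623, 2599 and 2902 CPM to 2220.1, 2175 and 1966 CPM. In LM1-LM mt-Co1 (0.23, adjusted p = 0.0498) and mt-Co2 (0.27, adjusted p = 0.014), catalytic subunits of complex IV, were higher, and neither was called with upper-quartile scaling, library size alone, DESeq2 or without replicate 2. With library size alone 5 mitochondrial genes were lower in LM1. These calls moved with single cultures. Without replicate 1, 3 genes were lower in MYAZ16.1e (mt-Nd1 at -0.31, mt-Nd2 at -0.31 and mt-Nd4, which turned to -0.12), and without replicate 3, 2 were higher (mt-Co3 and mt-Cytb). Over the settings without 1 replicate number the count called ran from 1 to 5 in Myc310, 2 to 5 in LM1 and 1 to 6 in LM1-LM. Of all genes 59.9% to 61.5%, 65.2% to 66.5% and 66.6% to 67.7% were called in these settings. Without a filter on low counts the count was 11, 8, 10 and 10 of 13 over the 4 lines. That is a larger part than among all genes (28.3%, 36%, 38.8% and 39.3%), unlike in the main fit. In fits of each line's 6 libraries alone the count was 0, 4, 9 and 5.

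With each mitochondrial gene summed with its nuclear copy the number called was 1, 3, 2 and 4 over the 4 lines. In that setting mt-Nd3 was lower in MYAZ16.1e (-0.15), Myc310 (-0.20) and LM1 (-0.22), and mt-Co3 was higher in Myc310 (0.11) and LM1-LM (0.14). The summed CPM of the 3 mitochondrial genes of complex IV changed by 13.8% in LM1 and 19.7% in LM1-LM without overlap between cultures (16.5% in LM1-LM with the copies added). That of the 7 genes of complex I changed by -12.1% in Myc310 without overlap, and by -1.97%, -6.15% and -2.53% in MYAZ16.1e, LM1 and LM1-LM with overlap. These sums depend on the scaling. After TMM the sum of all mitochondrial members changed by 4.30% in LM1 and 9.59% in LM1-LM, with overlap. Their share of gene counts, by library size alone, went from 1.92% to 1.85% in LM1 and was 1.70% in both media in LM1-LM.

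**Figure D4:**
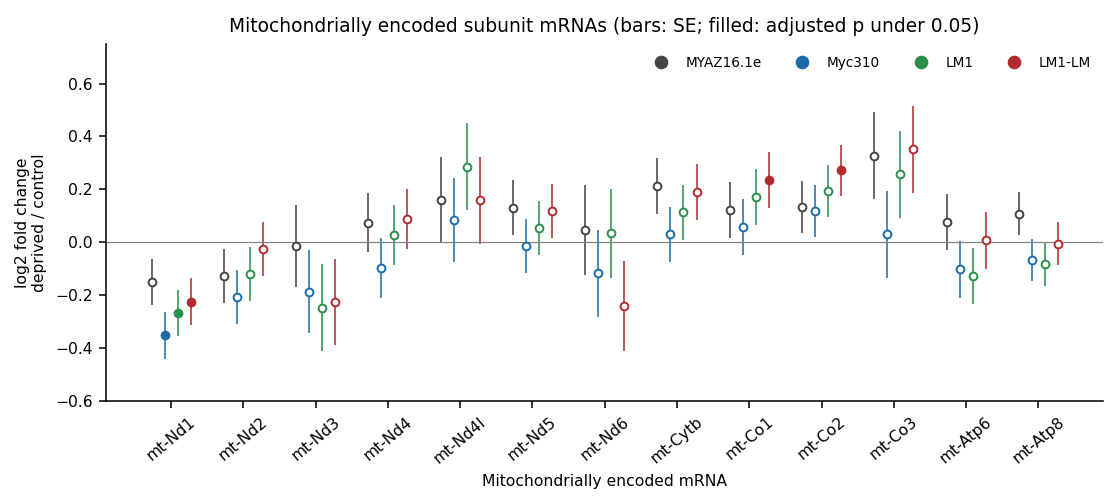
Log2 fold change (deprived over control) of the 13 mitochondrially encoded subunit mRNAs in the 4 deprived lines. Bars are the SE and filled points passed an adjusted p of 0.05. mt-Nd1 lies below 0 in each line, from -0.15 to -0.35, and mt-Co1 and mt-Co2 above 0, with most other bars crossing 0.

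Whether the response differed between lines was tested as an interaction against MYAZ16.1e, which, like Myc310, came from a mammary tumour and not from a lung. Atp5k, Uqcr11, Sdhd and Atp5mpl fell further in Myc310, LM1 and LM1-LM than in MYAZ16.1e. Of 92 members, the response of Myc310 differed for 26 (background 40.3% of all tested genes), that of LM1 for 36 (52.2%) and that of LM1-LM for 40 (54.8%). Cox6a2, kept through its deprived cultures, is 1 of each count. Without replicate 2 the count for Myc310 fell to 15 (16.3%, beside 30% of all genes). Without replicate 3 that for LM1 fell to 22 (23.9%, beside 44.6%). The difference in log2 fold change was -0.71, -1.15 and -1.22 for Atp5k (SE 0.08 each), -0.51, -0.55 and -0.55 for Uqcr11, -0.46, -0.42 and -0.37 for Sdhd, and -0.27, -0.42 and -0.51 for Atp5mpl, in the order Myc310, LM1 and LM1-LM. The fall of Uqcrh was smaller than in MYAZ16.1e in LM1 (difference 0.18) and LM1-LM (0.22) and did not differ detectably in Myc310 (-0.08 ± 0.06, SE). No mitochondrial member was called, although some were without 1 replicate number or without a filter on low counts. In LM1 1 was more negative with upper-quartile scaling, and with library size alone 1 was in LM1 and 1 in LM1-LM. All 3 contrasts share the MYAZ16.1e cultures, and 1 line stands for the MYAZ tumours.

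The direction of these differences depended on the scaling. With TMM scaling 2 members were more positive and 24 more negative in Myc310 (background 19.8% and 20.4%), 20 and 16 in LM1 (26.9% and 25.3%), and 25 and 15 in LM1-LM (28.4% and 26.4%). Upper-quartile scaling gave 1 and 28, 3 and 28, and 6 and 22. The shares of all genes were then 17.0% and 23.5%, 21.4% and 30.8%, and 22.7% and 31.9%. Library size alone gave 1 and 31, 1 and 35, and 1 and 39, with the median of all genes at -0.07, -0.13 and -0.15. Beside these counts stood 15.5% and 25.4%, 18.1% and 35.5%, and 19.1% and 36.9% of all genes. Atp5k, Uqcr11 and Sdhd were called in the same direction under each of these scalings.

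The second comparison set the lines against each other in control medium. The 7 lines of the Myc310 lineage had more mRNA for Uqcrfs1, Sdha, Sdhd, Cox7c and Cox5a than the 3 MYAZ lines and less for Atp5e, calls that in LM and LM-LM also passed with counts summed per line. Of 91 members tested, 38 were higher and 10 lower in Myc310 against a background of 23.8% and 27.1% of all tested genes (50.9% in all). LM had 36 higher and 13 lower (30.3% and 30.5%, in all 60.8%), and LM-LM 39 higher and 14 lower (30.5% and 32.3%, in all 62.8%). Of the 8 genes of complex III, 7 were higher in each of the 3 comparisons and none lower, although with counts summed per line Uqcrc1, Uqcr11 and Uqcrh passed in none. Nuclear complex I had 10 higher and 5 lower, 12 and 7, and 14 and 8. Of 17 genes of complex V, 8, 9 and 10 were higher and 2, 3 and 2 lower, and of 12 of complex IV 6 were higher in each and 2, 2 and 3 lower.

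These fits treat cultures as samples. With counts summed per line, 8, 22 and 24 members passed in the same order, and voom with line as a random block gave 15, 23 and 30. The shares of all genes called were 8.92%, 23.6% and 26.4% with line sums and 20.4%, 34.5% and 36.6% with voom, and the members' shares were 8.7%, 23.9% and 26.1%, and 16.5%, 25.3% and 33%, near or below them. Myc310 is 1 sample in the line sums and is assumed to vary like the lines of the other groups, so its line-sum results are not used as support. All 7 lines of Myc310 descent go back to 1 line, so descent and metastatic history cannot be told apart, and the 3 comparisons share the MYAZ cultures.

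Uqcrfs1, the Rieske protein of complex III (chromosome 13, 30540308 to 30545362), had the largest rise among tested members in each of the 3 comparisons. Its level was 83.4 ± 3.5 CPM (SD, n = 3 cultures) in MYAZ16.1e, 68.0 ± 1.23 in MYAZ12.3i and 76.6 ± 0.782 in MYAZ6.6g. In Myc310 it was 132.7 ± 5.29 CPM, in LM1, LM2 and LM3 131.2 ± 1.65, 123.8 ± 6.37 and 123.0 ± 4.21, and in LM1-LM, LM2-LM and LM3-LM 130.0 ± 5.04, 143.3 ± 2.5 and 125.0 ± 2.83. No line of the lineage overlapped a MYAZ line. The log2 fold change was 0.79 ± 0.07, 0.72 ± 0.05 and 0.80 ± 0.05 (SE) for the 3 subtypes, and the adjusted p with line sums was 0.00119 in LM and 0.000702 in LM-LM.

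In complex II Sdha stood at 194.7, 189.8 and 226.1 CPM in MYAZ16.1e, MYAZ12.3i and MYAZ6.6g and at 293.1 to 311.7 CPM in the 7 other lines. Sdhd followed, with 131.7, 165.2 and 144.3 CPM against 216.8 to 247.5 CPM. Their log2 fold changes were 0.58, 0.56 and 0.59 for Sdha and 0.63, 0.59 and 0.66 for Sdhd. Sdhb was not called (-0.14, 0.02 and 0.10), a result that rested on the MYAZ lines included. It was called at -0.37, -0.17 and -0.15 with the 4 lines used for deprivation alone, at -0.26 in Myc310 without MYAZ12.3i, and at 0.15 in LM and 0.23 in LM-LM without MYAZ16.1e. Sdhc was lower (-0.30, -0.25 and -0.23), a call that line sums did not keep and that turned to 0.06, 0.04 and 0.10 (the last called) when the 4 lines used for deprivation were compared alone, since MYAZ16.1e had 77.8 CPM beside 122.9 in MYAZ12.3i.

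Cox7c, a small subunit of complex IV, was at 81.5, 71.0 and 74.5 CPM in the MYAZ lines and at 110.6 to 121.5 CPM in the others, a log2 fold change of 0.64, 0.64 and 0.60 (adjusted p with line sums 0.000809 in LM and 0.000875 in LM-LM). Cox7b (0.58, 0.52 and 0.55), Cox5a (0.43, 0.40 and 0.46) and Cox8a (0.44, 0.40 and 0.44) moved with it, and with line sums Cox7b (adjusted p = 0.0614) and Cox8a (0.057) did not pass in Myc310. Ndufa4 went the other way in LM (-0.45) and LM-LM (-0.57) and was not called in Myc310 (-0.17), with line means from 185.7 to 216.9 CPM in MYAZ, 176.4 in Myc310 and 110.6 to 166.5 CPM in the lung-derived lines.

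Atp5e, the epsilon subunit of the ATP synthase head, had the largest fall among tested members. Its level was 89.5 ± 5.36, 121.6 ± 1.77 and 102.3 ± 2.60 CPM in the MYAZ lines, and line means ran from 55.6 to 67.4 CPM in the other 7. The log2 fold changes were -0.82, -0.79 and -0.83, with adjusted p-values over line sums of 0.00303 in LM and 0.00245 in LM-LM. Of the other genes of the head, Atp5d (0.33, 0.27 and 0.34), Atp5a1 (0.25, 0.18 and 0.21) and Atp5b (0.16, 0.13 and 0.14) were higher, and Atp5c1 was called in LM-LM (0.16). With line sums Atp5d passed in LM and LM-LM, and the other 3 genes in none. In complex I Ndufs3 (-0.47, -0.55 and -0.48) and Ndufa7 (-0.49, -0.45 and -0.49) were lower, and Ndufb11 (0.56, 0.47 and 0.47) higher. With line sums these passed in LM and LM-LM and not in Myc310, where the adjusted p was 0.0596, 0.0533 and 0.0815.

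**Figure D5:**
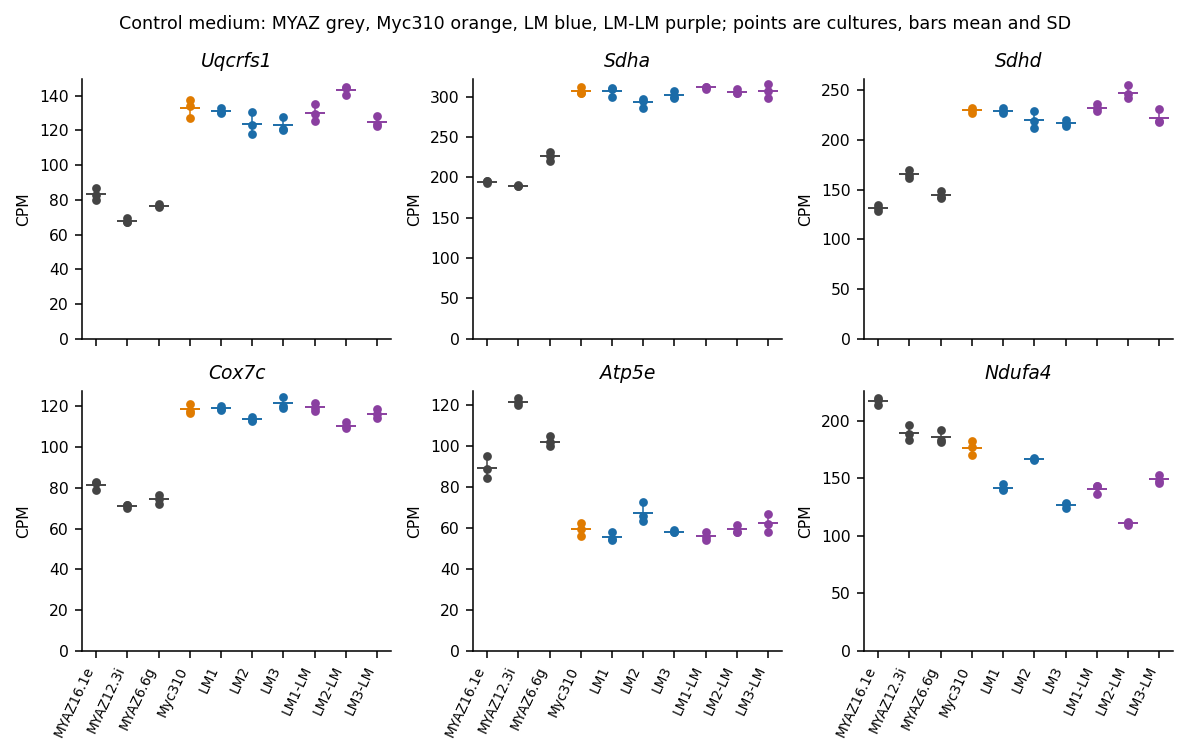
Level in CPM of 6 nuclear subunit mRNAs in 10 lines in control medium (MYAZ grey, Myc310 orange, LM blue, LM-LM purple). Points are cultures, bars the mean and SD, and each axis starts at 0. Uqcrfs1, Sdha, Sdhd and Cox7c lie higher and Atp5e lower in the 7 lines of Myc310 descent than in the 3 MYAZ lines, without overlap between line means, and Ndufa4 is lowest in the lung-derived lines.

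For the mitochondrial genes the spread between lines of a subtype was wide. Mean mt-Cytb was 2067, 851.4 and 1385 CPM in MYAZ16.1e, MYAZ12.3i and MYAZ6.6g, 2445 CPM in Myc310 and 1113 to 2338 CPM in the lung-derived lines. Called were 5 genes in Myc310 (mt-Nd4, mt-Nd4l, mt-Cytb, mt-Co2 and mt-Co3, at 0.48 to 0.76), none in LM and none in LM-LM. Of all tested genes 50.9%, 60.8% and 62.8% were called in the same order. The fit treats cultures as samples, and Myc310 is 1 line. With nuclear copies summed there were 6 in Myc310, mt-Nd3 (0.25) being added, 1 in LM (mt-Co2, 0.44) and none in LM-LM. The percent of counts on mitochondrial mRNAs averaged 1.40 ± 0.43 over the 3 MYAZ lines (SD of line means), 1.57 ± 0.31 over LM and 1.46 ± 0.42 over LM-LM, and exact permutation tests gave p = 0.6 and 0.9.

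Within the lineage no member passed the threshold of edgeR's quasi-likelihood test, neither in LM against Myc310 (background 4.94%) nor in LM-LM against LM (0.768%). At an unadjusted p under 0.05 there were 6 of 91 members in the first (18.1% of all genes) and 2 in the second (11.1%), and DESeq2 called none in either. With the 4 lines used for deprivation alone, 18 members were called in LM against Myc310 (19.8%, beside 32.7% of all genes) and 1 in LM-LM against LM (1.1%, beside 10.1%), and 7 were called in the latter without LM3-LM (7.69%, beside 15.0%). In LM against Myc310 the 78 nuclear members had log2 fold changes between -0.28 and 0.23 and approximate 95% intervals within -0.48 and 0.53. All intervals in this paragraph are per gene and treat cultures as samples, with Myc310 as 1 line. They do not measure the spread between lines and set no bound on differences between subtypes. The 13 mitochondrial members, which are not independent, lay between -0.56 and -0.26, with intervals from -1.18 to 0.22. Their share of gene counts averaged 2.00% in Myc310, 1.92% in LM1, 1.40% in LM2 and 1.39% in LM3, so LM1 lay near Myc310. In LM-LM against LM the nuclear intervals lay within -0.36 and 0.28.

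The NDI1 line was compared with its parent MYAZ12.3i. Of 91 members 3 were higher and 7 lower, against a background of 8.14% and 9.27% of all tested genes (17.4% in all), and the differences were small. The 10 calls became 3 without replicate 1 (3.3%, beside 6.94% of all genes) and 6 with DESeq2 (6.59%, beside 12.6%). Without a filter on low counts they became 20 (21.5%, beside 11.4%), a share above that of all genes. Sdhc (-0.16), Cox5a (-0.16), Uqcrc1 (-0.14), Sdhd (-0.13), Atp5g2 (-0.13), Ndufv2 (-0.11) and Atp5d (-0.10) were lower, and mt-Co3 (0.28), Uqcrfs1 (0.15) and Cox6c (0.10) higher. The rise of mt-Co3 turned to -0.11 (adjusted p = 0.313) when the gene was summed with its nuclear copy. Among complex I genes, Ndufv2 alone was called, with an adjusted p of 0.0499. The mitochondrial share was 0.960% ± 0.171 in the parent and 0.974% ± 0.169 in the NDI1 line (SD, n = 3, exact permutation p = 1).

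The genes that serve the complexes without being part of them were followed in lists. Of 51 assembly factors tested, 19 were lower and 5 higher after deprivation in MYAZ16.1e, and 26 and 9, 23 and 12, and 24 and 12 in the 3 other lines. Over all tested genes the shares lower were 27.1%, 33.9%, 35.3% and 35.9% and the shares higher 26.6%, 32.8%, 35.8% and 36.5%. Ndufaf1, needed for the membrane arm of complex I, fell by 0.54, 1.29, 0.95 and 1.12 on the log2 scale, and Coa6, a copper chaperone factor of complex IV, by 0.48, 0.93, 0.94 and 1.07. Sdhaf1, which helps to insert the iron-sulfur clusters of Sdhb, stood at 0.12 in MYAZ16.1e, not called, and fell by 0.37, 0.89 and 0.96 in the other lines. Coa4 rose by 0.49, 0.74, 1.12 and 0.97 and Timmdc1 by 0.16 to 0.58. The 3 subunit genes outside the name rule moved by -0.24 to 0.09.

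Of 25 genes for the expression and copying of mitochondrial DNA, 14, 17, 18 and 18 were lower and 4, 5, 7 and 4 higher in the 4 lines, beside the same shares of all genes (27.1% to 35.9% lower and 26.6% to 36.5% higher). The RNA polymerase Polrmt fell by 0.20, 0.62, 0.56 and 0.54, the helicase Twnk by 0.32, 0.80, 1.22 and 1.40 and the polymerase Polg by 0.29, 0.55, 0.66 and 0.80 on the log2 scale. Tfam, which packages mitochondrial DNA, rose by 0.18 to 0.25, and Mterf3, a repressor of mitochondrial transcription, rose by 0.75, 1.31, 1.39 and 1.56. Of 10 regulators of mitochondrial biogenesis, 5, 6, 5 and 5 were lower and 1, 2, 4 and 3 higher in the 4 lines. Tfe3 rose by 0.56, 0.83, 1.12 and 1.12, Pprc1 fell by 0.47 to 0.69, Yy1 by 0.27 to 0.49, and Myc had an uncalled 0.06 and then -0.32, -0.88 and -1.26. Ppargc1b had -0.32, -1.77, -3.51 and -3.47, Esrra an uncalled -0.09 in MYAZ16.1e and then -1.40, -1.80 and -1.99, and Nrf1 -0.17, 0.21, 0.16 and an uncalled 0.10. Among 7 other enzymes that feed ubiquinone Dhodh fell by 0.43, 1.01, 1.41 and 1.47, and Aifm2 (FSP1), which reduces ubiquinone outside mitochondria, rose by 0.20 to 0.36.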

How the data were processed

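Polyadenylated RNA of 45 cultures was sequenced from both ends. The authors aligned the reads with STAR, estimated gene totals by RSEM within an nf-core workflow and deposited whole-number counts per gene without normalisation, on GRCm38, and their processing notes also name R 4.2.2 and DESeq2 1.38.3. All columns of the table were mapped to a line and medium from the labels. Mitochondrial genes, which the table lists by human-style symbols, were identified by Ensembl identifier. Positions, exon lengths and shared 75-base stretches come from GENCODE mouse release M21 and promoter windows from RefSeq.

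Counts were scaled with TMM and tested with edgeR 4.0.16 (quasi-likelihood test, limma 3.58.1, R 4.3.3, filterByExpr) with Benjamini-Hochberg adjustment over all genes and a threshold of 0.05. The deprivation model held 24 libraries in 8 groups with interaction contrasts, the subtype model 30 control libraries with subtype only, and the NDI1 model 6 libraries. One contrast of each of the 3 models was tested on simulated data. Levels are CPM after TMM over the 45 libraries. Shares were compared with exact two-sided permutation tests. Named genes are the mitochondrial and Sdh genes, the isoform pairs and, per complex and comparison, the called nuclear member with the largest rise and fall at a mean log2 CPM of at least 3; further members are named to complete a group and were chosen after their values were seen. One member counted in the totals is not reported here by name or drawn. The members and lists were chosen with earlier results of these data known. Alternatives were RLE and upper-quartile scaling, other filters on low counts, removal of mitochondrial genes, DESeq2 1.42.0, the replicate number as a block, counts summed per line, voom with line as a random block, subsets of lines, leaving out cultures or lines, and, chosen after seeing the data, library size alone and mitochondrial genes summed with nuclear copies.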

Additional observations from a re-analysis of the deposited data

Results flagged for a closer look

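The response to deprivation differed from that of MYAZ16.1e, by the interaction test, for 26 of 92 members (Myc310), 36 (LM1) and 40 (LM1-LM), which is a smaller share than the 40.3%, 52.2% and 54.8% of all tested genes. The differences of at least 0.5 on the log2 scale are as follows, and their causes were not tested. In the order Myc310, LM1, LM1-LM, Atp5k differed by -0.71, -1.15 and -1.22. Uqcr11 differed by -0.51, -0.55 and -0.55 in the same order, and Ndufb3 by -0.62 in LM1 and -0.58 in LM1-LM. Atp5mpl differed by -0.51 and Ndufb4 by -0.50 in LM1-LM, where Ndufb4 shares its reads with Ndufb4c. Cox6a2 differed by 3.93, 4.59 and 5.00, fitted values that rest on 1 count in the control cultures of each of these lines and depend on the prior count. The gene passed the filter on low counts only through the deprived cultures, where it is high, so no test is read from these values, and it is 1 of each of the 3 counts.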

How the results depend on the processing

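Members called in LM against Myc310 were 0, and 0 to 1 when 1 line was left out (1 without LM1, LM2 or LM2-LM), or 18 in the 4 lines used for deprivation alone. For LM-LM against LM they were 0, then 7 without LM3-LM and 1 in those 4 lines. Counts summed per line gave 8, 22 and 24 members for Myc310, LM and LM-LM against MYAZ, and voom with line as a random block 15, 23 and 30, in place of 48, 49 and 53. For NDI1 the 10 calls became 20 without a filter on low counts (21.5%, beside 11.4% of all genes) and 6 with DESeq2 (6.59%, beside 12.6%). Without 1 replicate number they became 3 to 6 (3.3% to 6.59%, beside 6.94% to 10.4%), with 3 when number 1 was left out. Interaction calls ranged from 15 (without number 2) to 19 in Myc310 and from 22 (without number 3) to 36 in LM1 when 1 replicate number was left out. Of all genes 30% to 33.6% and 44.1% to 46.1% were called in these settings. The change in mitochondrial share ranged from -0.161 to 0.0210 percentage points in Myc310 and from -0.136 to 0.0235 in LM1 without 1 replicate number, and its sign also turned in MYAZ16.1e (-0.102 to 0.274) and LM1-LM (-0.106 to 0.0611). With RLE scaling the summed level after deprivation relative to control was 0.821 for complex II in LM1-LM and 0.975 for complex V in LM1. In MYAZ16.1e mt-Nd4 ranged from -0.12 (without number 1, adjusted p = 0.0237) to 0.18.

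Signs that reversed are given next, and the cause was not tested. Upper-quartile scaling gave -0.069 for Cox6b1 in deprived LM1 and -0.075 for Sdhb in LM1-LM. Library size alone gave, in deprived LM1, -0.10 for Sdhc, -0.0034 for Cox4i1 and -0.11 for Cox6b1, and in LM1-LM -0.12 for Sdhb, -0.11 for Sdhc, -0.043 for Cox4i1, -0.077 for Cox6b1 and -0.039 for Cox7a2l. For the interaction in LM1 it gave -0.018 for Sdha, -0.014 for Sdhc, -0.0078 for Cox4i1, -0.0064 for Cox6a1, -0.033 for Cox6b1 and -0.0060 for Atp5g3, and in LM1-LM -0.036 for Sdha, -0.030 for Sdhc, -0.047 for Cox4i1, -0.0013 for Cox6b1 and -0.14 for Cox7b. With 4 lines alone Sdhc was 0.064, 0.040 and 0.10 for Myc310, LM and LM-LM against MYAZ, Sdhb -0.17 and -0.15 in LM and LM-LM (both called), Atp5g2 -0.23 in LM and mt-Nd2 -0.31 in LM-LM. Summing with the nuclear copy gave -0.11 for mt-Co3 in NDI1.

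Same-numbered cultures did not deviate together (correlations -0.0532 to 0.0451), so the numbers were not taken as pairs, and with the replicate block 45, 63, 57 and 56 members were called after deprivation over the 4 lines, and 13 in NDI1. Of 286 alternative values of the main results 262 stayed within 1.5 times the count reported or, for shares and summed levels, within 1 SD between cultures or lines.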

Other observations

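The mitochondrial ribosomal RNAs, which carry short or no poly(A) tails, moved in opposite directions after deprivation. The large rRNA mt-Rnr2 rose in each of the 4 lines, by 0.60, 0.86, 1.18 and 1.17 on the log2 scale (MYAZ16.1e first, LM1-LM last), and the small rRNA mt-Rnr1 fell by 0.54, 0.81, 0.95 and 0.91 (edgeR's quasi-likelihood test, adjusted p under 0.05 for each). In the NDI1 line both were higher than in the parent, by 0.71 and 0.37. The libraries were selected for poly(A), and the part of this selection in these values was not tested.

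Length bore little relation to the response across nuclear members. Over 79 members the Spearman correlation of merged exon length with the log2 fold change was 0.0901 in MYAZ16.1e and 0.113 in LM1-LM, and over all genes 0.114 and 0.0902, given as a description across genes that are not independent.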
